A study of Mus musculus with 18 samples.

Results

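The 10 genes described here encode enzymes that place double bonds into fatty acyl chains, the desaturases Scd1, Scd2, Fads1, Fads2 and Fads3, or that lengthen those chains, the elongases Elovl1, Elovl4, Elovl5, Elovl6 and Elovl7. They were chosen by symbol among 19938 genes measured in visceral white adipose tissue (WAT). Each of them has 1 probe set with a single gene symbol on the Affymetrix Mouse Gene 1.0 ST array, so no choice between probe sets was needed. The arrays come from 18 male wildtype C57BL/6N mice aged 5 to 6 months, 1 array per mouse, and the labels call the mice biological replicates. All values are log2 signals, so a difference of 1 is a doubling, and signals are compared between mice for the same gene only.

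The 7 control mice (Con, SD) were given citrate buffer in place of streptozotocin and ate the standard diet. The 6 diabetic mice (STZ, SD) received intraperitoneal streptozotocin, a toxin of the insulin-producing beta cells, at 65 mg/kg on each of 5 days in a row when 10 to 16 weeks old, and ate the same diet. The 5 treated mice (STZ, BEZ) had the same injections and, from 2 weeks later, 8 weeks of bezafibrate, a fibrate that activates the PPAR nuclear receptors. The drug was mixed into the chow at 0.25% or 0.5% by weight, and the labels do not say which mouse ate which chow. The methods of the study give a somewhat different streptozotocin dose and age at injection, and describe the controls as not injected. Streptozotocin diabetes models loss of insulin by a toxin, and no bezafibrate-fed mice without streptozotocin were analysed here, so the drug was compared in diabetic mice only. The comparisons share arrays: STZ, SD enters the first and the second, and Con, SD the first and the third.

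Stearoyl-CoA desaturases turn saturated stearate and palmitate into oleate and palmitoleate, the main monounsaturated fatty acids of stored fat. The front-end desaturases Fads1 and Fads2 alternate with elongases to make arachidonate and other polyunsaturated fatty acids from dietary precursors. Elongases catalyse the first, condensing step of a cycle in the endoplasmic reticulum, and the genes of this family are known in fat and liver as targets of insulin, through SREBP-1c, and of LXR and PPAR receptors.

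Of the 10 genes, 5 were called lower and 0 higher in STZ, SD than in Con, SD at an adjusted p under 0.10 (limma, Benjamini-Hochberg over all genes). They were the stearoyl-CoA desaturases Scd1 and Scd2, the desaturase Fads3 and the elongases Elovl1 and Elovl6, and their log2 signal fell by between 0.57 and 2.01. Over all genes 10.3% were called in this comparison and 4.52% were called lower. The median difference of the 10 genes was -0.70, against -0.03 over all genes. With bezafibrate, 1 of the 10 genes, Scd1, was called higher than in STZ, SD, by 1.65, where 0.707% of all genes were called and 0.682% were called higher. Between STZ, BEZ and Con, SD 0 of the 10 genes were called, against 5.95% of all genes, and 2 of the 10, Scd2 and Elovl1, had an unadjusted p under 0.05. SAM, the test of the study's methods, called 1 of the 10 higher there (Elovl5) and 3 lower (Scd2, Elovl1 and Elovl6). Over all genes SAM called 23.7% in this comparison. For none of the 10 genes were any of the 3 pairs of groups free of overlap. All mice of one group lay above all of the other for 1.62% of all genes in STZ, SD against Con, SD, for 1.49% in STZ, BEZ against STZ, SD and for 6.8% in STZ, BEZ against Con, SD. In whole tissue, fewer adipocytes and less RNA per adipocyte cannot be told apart.

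**Figure D1:**
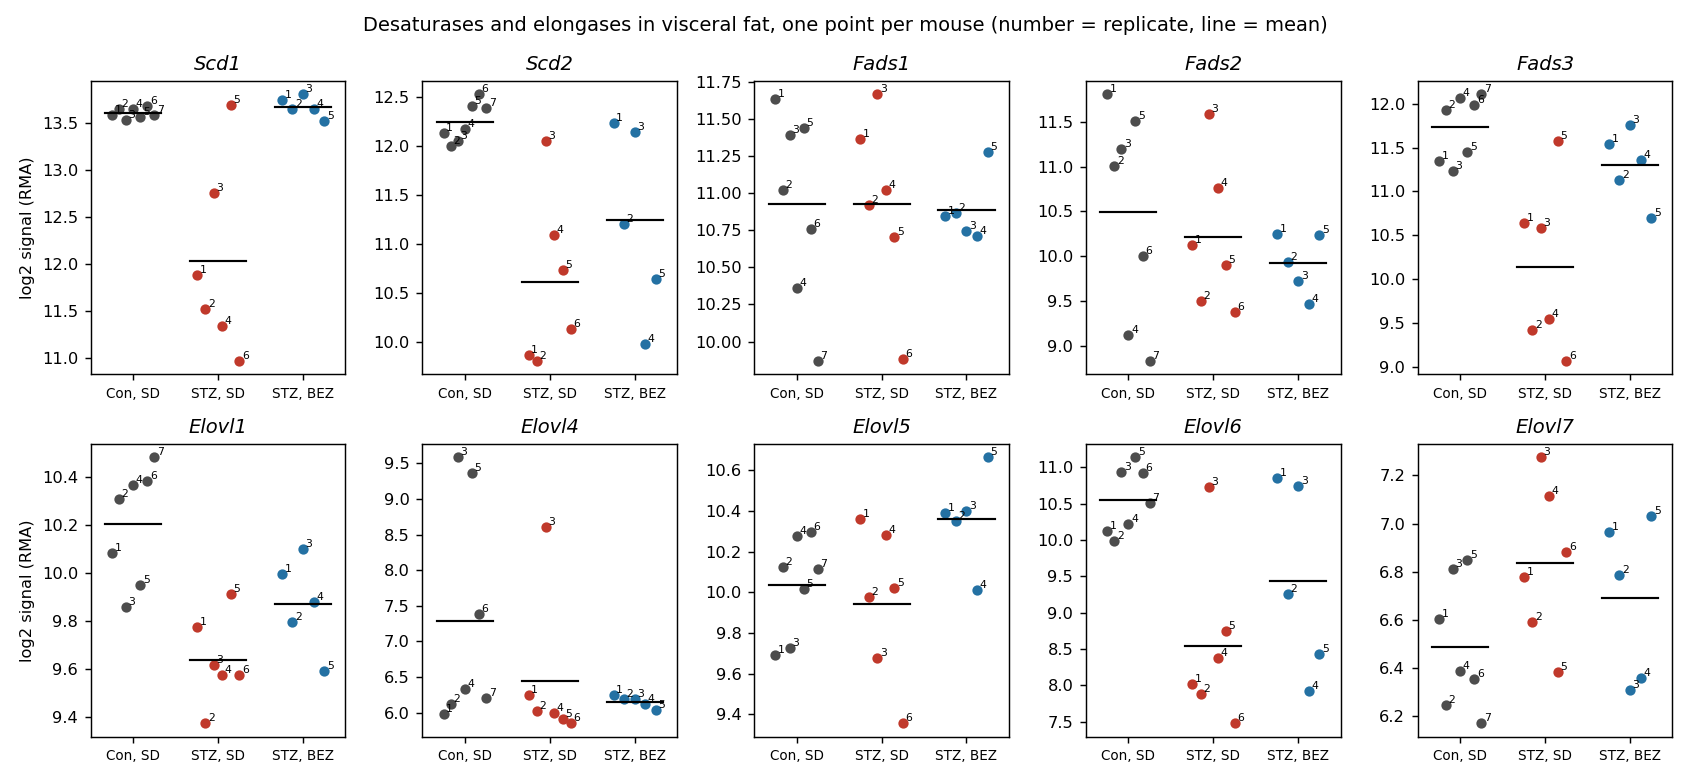
Log2 signal of each of the 10 genes (vertical axis, own scale per gene) in the 7 Con, SD, 6 STZ, SD and 5 STZ, BEZ mice, with 1 point per mouse, its replicate number and a line at the group mean. Scd1 sits between 13.53 and 13.68 in all controls and between 13.52 and 13.81 in all bezafibrate-fed mice, while 5 of 6 STZ, SD mice lie below both groups.

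The tissue of origin was checked on its defining genes. Adipoq, the adiponectin gene, lay between 11.03 and 12.97 in all mice, and the mean of 13 white adipocyte genes covered 11.79 to 12.46 for controls, 10.08 to 12.38 for STZ, SD and 12.21 to 12.42 for STZ, BEZ. All 13 had a mean below that of the controls in STZ, SD, with a median difference of -0.52, and 1 of them, Lep, was called lower. All 13 were above the STZ, SD mean in STZ, BEZ, with a median difference of 0.75 and 0 called. The white adipocyte list thus moved in the direction of the 5 lower genes in STZ, SD and of Scd1 with bezafibrate. Of the 10 genes described here, 8 had a difference below 0 and 2 above 0 in the first comparison. In the second, 6 were above 0 and 4 below. Genes of pancreas, of epididymis and testis and of liver marked some mice. The mean of 17 pancreas genes stayed at 5.85 to 6.19 for controls. STZ, SD replicate 6 had 12.95 and its group mates 5.84 to 6.06, and the bezafibrate-fed replicates 1 to 5 had 11.03, 9.38, 9.06, 8.55 and 5.95. The mean of 19 epididymis and testis genes spanned 6.65 to 11.59 for controls, 5.81 to 11.60 for STZ, SD and 5.89 to 6.75 for STZ, BEZ, and was above 10 in Con, SD replicates 3 and 5 and STZ, SD replicate 3. The mean of 10 skeletal muscle genes was 6.59 to 8.61 for controls, 6.22 to 6.51 for STZ, SD and 6.26 to 7.36 for STZ, BEZ, and 6 of these genes were called lower in STZ, SD than in Con, SD. The mean of 9 liver genes was 6.86 to 9.11 for controls and 6.22 to 6.89 for STZ, SD, where 2 of the 9 (Alb and Apoa2) were called lower. In STZ, BEZ replicate 5 had the highest liver list mean of all mice, 10.14, and its group mates had 6.79 to 7.25. STZ, SD replicate 6 also had a mean of 9.24 over 9 lymphocyte genes, against 6.20 to 6.88 in its group mates. The mean of 8 brown adipocyte genes was 6.79 to 7.58 for controls, 6.74 to 7.21 for STZ, SD and 7.61 to 8.23 for STZ, BEZ.

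Promoter sequences are shown for the 3 of the 5 lower genes that have one in the table used, because these genes fell together. They are RefSeq windows on GRCm38.p6, read 5′ to 3′ on the strand of the gene, from 250 bases before to 50 bases after the start of the gene. Capitals mark the matches of 4 motifs searched on both strands: the sterol regulatory element core TCACNCCAC, the E-box CACGTG, the NF-Y box CCAAT and the GC box GGGCGG. Elovl6 lies at chr3:129532136-129532435 (+), Fads3 at chr19:10041298-10041597 (+) and the first of the 2 Elovl1 windows at chr4:118427843-118428142 (+).
Elovl6: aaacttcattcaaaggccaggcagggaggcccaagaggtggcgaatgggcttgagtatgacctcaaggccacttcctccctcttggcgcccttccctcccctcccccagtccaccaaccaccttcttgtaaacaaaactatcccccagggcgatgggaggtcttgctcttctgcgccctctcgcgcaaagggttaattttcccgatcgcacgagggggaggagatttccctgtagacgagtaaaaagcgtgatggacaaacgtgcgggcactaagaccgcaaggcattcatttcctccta
Fads3: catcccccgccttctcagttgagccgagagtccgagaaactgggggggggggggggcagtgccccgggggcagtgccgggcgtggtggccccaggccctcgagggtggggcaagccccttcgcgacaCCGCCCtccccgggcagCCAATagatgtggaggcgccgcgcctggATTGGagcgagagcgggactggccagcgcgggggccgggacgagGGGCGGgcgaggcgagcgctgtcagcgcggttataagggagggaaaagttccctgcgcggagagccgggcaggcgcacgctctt
Elovl1: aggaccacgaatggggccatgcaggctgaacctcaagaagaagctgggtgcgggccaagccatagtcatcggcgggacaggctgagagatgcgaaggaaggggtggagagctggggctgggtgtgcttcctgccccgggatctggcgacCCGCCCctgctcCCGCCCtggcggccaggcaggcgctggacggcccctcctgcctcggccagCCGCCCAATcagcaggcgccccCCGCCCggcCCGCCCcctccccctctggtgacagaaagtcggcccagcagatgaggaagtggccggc

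The window of Fads3 held 2 NF-Y boxes, starting 106 and 78 bases before the start, and 2 GC boxes. The Elovl1 window held 5 GC boxes and 1 NF-Y box, and that NF-Y box overlaps a GC box. The Elovl6 window held no match to any of the 4 motifs. Among 32851 RefSeq windows of the same length, 37.4% held the NF-Y box, 35.7% the GC box, 7.15% the E-box and 1.24% the sterol regulatory element core. Windows were found for 7 of the 10 genes. Of the genes that were not called, Elovl5 held 2 NF-Y boxes and 1 E-box, and Fads2 held 1 GC box. Elovl4 held 1 E-box, 1 NF-Y box and 2 GC boxes that overlap each other, Elovl7 held 3 GC boxes and the second Elovl1 window 2. The windows of Scd1, Scd2 and Fads1 were not analysed here. Matches describe these letters in these windows and were not tied to the changes in signal.

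Scd1, the main stearoyl-CoA desaturase of adipocytes, had one of the strongest signals on the array, with 2 genes above its mean in Con, SD. It was 13.53 to 13.68 in the 7 Con, SD mice, with a median of 13.59. In STZ, SD the lowest, median and highest signals were 10.97, 11.70 and 13.70. The STZ, BEZ mice gave 13.75, 13.65, 13.81, 13.65 and 13.52. Of the 6 STZ, SD mice 5 were thus below every control, and replicate 5, at 13.70, was above every control. The group means were 13.61 ± 0.05 (SD, n = 7), 12.03 ± 1.02 (SD, n = 6) and 13.68 ± 0.11 (SD, n = 5). Scd1 fell by 1.58 ± 0.31 (SE) on the log2 scale in STZ, SD compared with Con, SD, with an adjusted p of 0.0112 in limma, and 62 genes fell by more. It was called lower under every alternative run, with adjusted p up to 0.0986 in limma.

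With bezafibrate Scd1 rose by 1.65 ± 0.34 (SE) compared with STZ, SD, or 3.13-fold, with an adjusted p of 0.0621 in limma, and 36 genes rose by more. Its mean in STZ, BEZ differed from that in Con, SD by 0.07, with a 95% interval of -0.62 to 0.75. The highest value of the whole table is 14.09, so Scd1 lay near the upper end of the scale in both groups, and whether the probe set saturates there was not tested. The rise compared with STZ, SD was 1.44 to 1.98 when any 1 mouse was left out. The call was lost without STZ, SD replicate 2 (adjusted p of 0.134) or replicate 4 (0.180) and without STZ, BEZ replicate 1 (0.182), 2 (0.185), 3 (0.169), 4 (0.131) or 5 (0.116), all in limma. It was also lost with only the arrays of the 2 groups (adjusted p of 0.254) and without the 3 epididymis-high mice (1.80, 0.122). Without the 5 pancreas-high mice, which leaves 1 STZ, BEZ mouse, the difference was 1.28, with an adjusted p of 1.0 in limma. That mouse, replicate 5, had a Scd1 signal of 13.52, a pancreas list mean of 5.95 and the high liver list mean.

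Scd2, the form of the enzyme that is most abundant in brain and early life, was 12.00 to 12.53 in Con, SD, with a median of 12.18. The STZ, SD mice ran from 9.81 through a median of 10.44 to 12.06, and 5 of 6 were below every control. The highest of them was replicate 3, whose epididymis and testis genes were high as well. In STZ, BEZ the signals were 12.24, 11.20, 12.15, 9.98 and 10.64, so that 2 mice reached the controls and 3 stayed below them. Scd2 fell by 1.63 ± 0.37 (SE) in STZ, SD, with an adjusted p of 0.0200 in limma. The difference between STZ, BEZ and STZ, SD was 0.62, with a 95% interval of -0.23 to 1.48 and an adjusted p of 0.665 in limma. The STZ, BEZ mean lay below the Con, SD mean, with a 95% interval of the difference of -1.83 to -0.17 and an adjusted p of 0.181 in limma.

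The 2 stearoyl-CoA desaturases were set against each other within each mouse, by taking the Scd1 minus the Scd2 log2 signal and comparing groups by an exact two-sided permutation test adjusted over 9 tests (3 gene pairs, 3 comparisons). The Scd1 minus Scd2 value was 1.07 higher in STZ, BEZ than in Con, SD. The exact p of this difference was 0.00253 and the adjusted p 0.0227. By limma on the same within-mouse differences the adjusted p was 0.0647, which is not under 0.05. The Scd1 mean differed by only 0.07 between these groups, so the difference came mostly from Scd2, whose STZ, BEZ mean lay below that of Con, SD. The change from Con, SD to STZ, SD was 0.04 apart, with an exact p of 0.914. Between STZ, SD and STZ, BEZ it was 1.02 larger for Scd1, with an exact p of 0.115 and an adjusted p of 0.207. The within-mouse value of STZ, BEZ spread from 1.51 to 3.67, compared with 1.15 to 1.66 in Con, SD. This value also rests on Scd1 signals near the upper end of the scale. Scd1 and Scd2 are close paralogs, and how much either probe set also reads the other transcript was not tested.

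Fads3, which is known to desaturate sphingoid bases, was 11.23 to 12.11 in Con, SD, with a median of 11.93. The STZ, SD mice had 9.07 at the lowest, 10.07 at the median and 11.57 at the highest, with replicate 5 inside the control range and the other 5 below it. The STZ, BEZ mice had 11.54, 11.13, 11.75, 11.36 and 10.70, of which 3 lay inside the control range. Fads3 fell by 1.59 ± 0.33 (SE) in STZ, SD, or 3.02-fold, with an adjusted p of 0.0137 in limma. It was 1.16 ± 0.36 (SE) higher in STZ, BEZ than in STZ, SD, in 5 of 5 mice compared with the STZ, SD mean, but the adjusted p of 0.228 in limma did not pass. Without STZ, SD replicate 5 this difference was 1.45 (called, adjusted p of 0.0437 in limma). Without the pancreas-high mice it was 0.35, with an adjusted p of 1.0 in limma and 1 STZ, BEZ mouse left.

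Fads1 and Fads2, which carry out the front-end desaturation steps of polyunsaturated fatty acid synthesis, were not called in any comparison. Fads1 spread from 9.87 to 11.63 in Con, SD (median 11.02) and from 9.88 to 11.66 in STZ, SD (median 10.97), and was 10.85, 10.87, 10.74, 10.71 and 11.28 in STZ, BEZ. Its difference between STZ, SD and Con, SD was 0.00, with a 95% interval of -0.60 to 0.60. Fads2 spread from 8.83 to 11.81 in Con, SD (median 11.00) and from 9.38 to 11.59 in STZ, SD (median 10.02), with 10.25, 9.93, 9.72, 9.46 and 10.24 in STZ, BEZ. The difference for Fads2 was -0.28 between STZ, SD and Con, SD, with a 95% interval of -1.27 to 0.70. Both genes thus varied within the control group by more than their group means differed. The change of Fads1 and that of Fads2 were 0.29, 0.25 and 0.54 apart in the 3 comparisons, and the adjusted exact permutation p was 0.471, 0.471 and 0.188.

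Elovl6, which elongates palmitate to stearate, had the largest fall of the 10 genes. Its signal was 9.99 to 11.14 in Con, SD, with a median of 10.51. In STZ, SD it ran from 7.47 through a median of 8.20 to 10.72, and the 5 mice other than replicate 3 were below every control. That replicate 3 had the highest epididymis and testis list mean of all mice, 11.60. The highest controls, replicates 5, 3 and 6, at 11.14, 10.93 and 10.92, had means of 11.59, 11.27 and 9.17 for that list. In STZ, BEZ the Elovl6 signal was 10.86, 9.25, 10.75, 7.92 and 8.43, so replicates 1 and 3 were in the control range and the other 3 were below it. Elovl6 fell by 2.01 ± 0.52 (SE), or 4.04-fold, in STZ, SD compared with Con, SD, with an adjusted p of 0.0323 in limma, and 22 of 19938 genes fell by more. Its difference between STZ, BEZ and STZ, SD was 0.91, with a 95% interval of -0.28 to 2.09 and an adjusted p of 0.640 in limma. The pancreas list means of STZ, BEZ replicates 1 to 5 were 11.03, 9.38, 9.06, 8.55 and 5.95. Replicate 1 was the highest of the group in this mean, in Elovl6 and in Scd2. The order of both genes differed from that of the list mean by swaps of replicates 2 and 3 and of replicates 4 and 5. STZ, SD replicate 6, with the highest pancreas list mean of all mice, had the lowest Elovl6. Without the 5 mice high in pancreas genes 1 STZ, BEZ mouse is left, and the difference was then -0.31 for Elovl6 and -0.07 for Scd2. The part of the pancreas genes and of the epididymis and testis genes in these values was not tested.

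Elovl5, the elongase of polyunsaturated fatty acids, was not called in any comparison. It was 9.69 to 10.30 in Con, SD (median 10.12) and 9.36 to 10.36 in STZ, SD (median 10.00), and 10.39, 10.35, 10.40, 10.01 and 10.66 in STZ, BEZ. The difference between STZ, BEZ and STZ, SD was 0.42, with a 95% interval of 0.06 to 0.78 and an adjusted p of 0.394 in limma. Within each mouse, Elovl6 fell by 1.92 more than Elovl5 from Con, SD to STZ, SD, a difference of -1.92 with an exact permutation p of 0.00758 and an adjusted p of 0.0341. The adjusted p rose to at most 0.0584 when 1 mouse was left out. It was above 0.05 without Con, SD replicate 3 or 5 or STZ, SD replicates 1, 2, 4, 5 or 6. The same value was -1.43 from Con, SD to STZ, BEZ, with an adjusted exact permutation p of 0.0682, and 0.49 from STZ, SD to STZ, BEZ, with an adjusted exact permutation p of 0.584.

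Elovl1, which makes very long saturated and monounsaturated chains for sphingolipids, was 9.86 to 10.48 in Con, SD, with a median of 10.31. The STZ, SD mice were 9.37 at the lowest, 9.60 at the median and 9.92 at the highest, and replicate 5 was the 1 mouse inside the control range. The STZ, BEZ mice were 10.00, 9.80, 10.10, 9.88 and 9.59, with a mean between those of the other groups. Elovl1 fell by 0.57 ± 0.12 (SE), or 1.48-fold, in STZ, SD compared with Con, SD, with an adjusted p of 0.0135 in limma, a smaller step than those of the other lower genes but with a small spread. Its difference between STZ, BEZ and STZ, SD was 0.23, with an adjusted p of 0.562 in limma.

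Elovl4, which makes ultra-long chains in retina, skin, brain and testis, was low in most mice and high in a few. In Con, SD the lowest signal was 5.97, the median 6.34 and the highest 9.59, and in STZ, SD they were 5.85, 6.01 and 8.61. The STZ, BEZ mice had 6.24, 6.19, 6.18, 6.12 and 6.04. The 4 mice with a signal above 7 were Con, SD replicates 3, 5 and 6, at 9.59, 9.36 and 7.38, and STZ, SD replicate 3, at 8.61. Their epididymis and testis list means were 11.27, 11.59, 9.17 and 11.60, the 4 highest of all mice, as the plot of members beside marker lists shows. The next highest list mean, 8.49 in STZ, SD replicate 4, came with an Elovl4 signal of 6.00. Elovl4 was not called in any comparison, and its difference between STZ, SD and Con, SD was -0.84, with a 95% interval of -2.11 to 0.44.

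Elovl7, which elongates saturated long chains, was a dim gene and was not called in any comparison. Its signal was 6.17 to 6.85 in Con, SD (median 6.39) and 6.38 to 7.28 in STZ, SD (median 6.83), and 6.96, 6.79, 6.31, 6.36 and 7.03 in STZ, BEZ. Its difference between STZ, SD and Con, SD was 0.35 ± 0.16 (SE), with an unadjusted p of 0.0485 and an adjusted p of 0.243 in limma, and SAM did not call it.

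**Figure D2:**
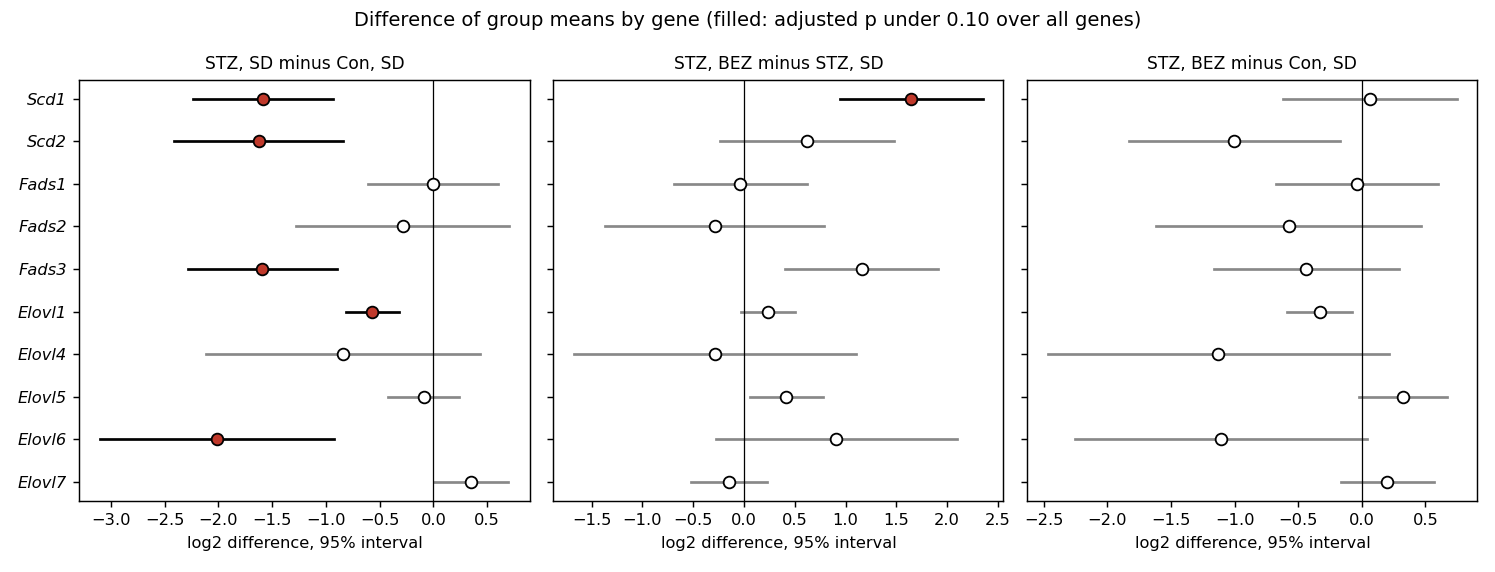
Log2 difference of group means (horizontal axis) with its 95% interval from limma for each of the 10 genes in the 3 comparisons, filled where the adjusted p over all genes was under 0.10. In the left panel 5 genes are filled, all below 0, in the middle panel Scd1 is filled at 1.65, and in the right panel no gene is filled.

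The mice differed in white adipocyte genes, and the lower genes were set beside them. STZ, SD replicates 1 and 5 had white adipocyte list means of 12.29 and 12.38, inside the control range of 11.79 to 12.46, and the other 4 STZ, SD mice were at 10.08 to 11.64, below it. Replicate 5 was the mouse whose Scd1, Fads3 and Elovl1 were in or above the control range. Its Scd2, at 10.74, and Elovl6, at 8.74, were below every control. Replicate 3, with a white adipocyte list mean of 11.39, had Scd2 at 12.06 and Elovl6 at 10.72, both inside the control range. The Scd1, Fads3 and Elovl1 signals of replicate 3 were below every control. Replicate 1 had 11.88 for Scd1, 10.64 for Fads3 and 8.02 for Elovl6, each below every control. STZ, SD replicate 6, with the lowest list mean of 10.08 and the high pancreas genes, had the lowest Scd1, Fads3 and Elovl6 of all mice. Without the mice high in pancreas genes the 5 genes were still called lower, by -1.37 for Scd1, -1.53 for Scd2, -1.38 for Fads3, -0.55 for Elovl1 and -1.80 for Elovl6. Without the 3 mice whose epididymis and testis list mean was above 10 the differences were -1.75, -1.92, -1.84, -0.68 and -2.26 in the same order, and all 5 genes were called lower. The part of adipocyte share and of skeletal muscle genes in the falls was not tested.

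**Figure D3:**
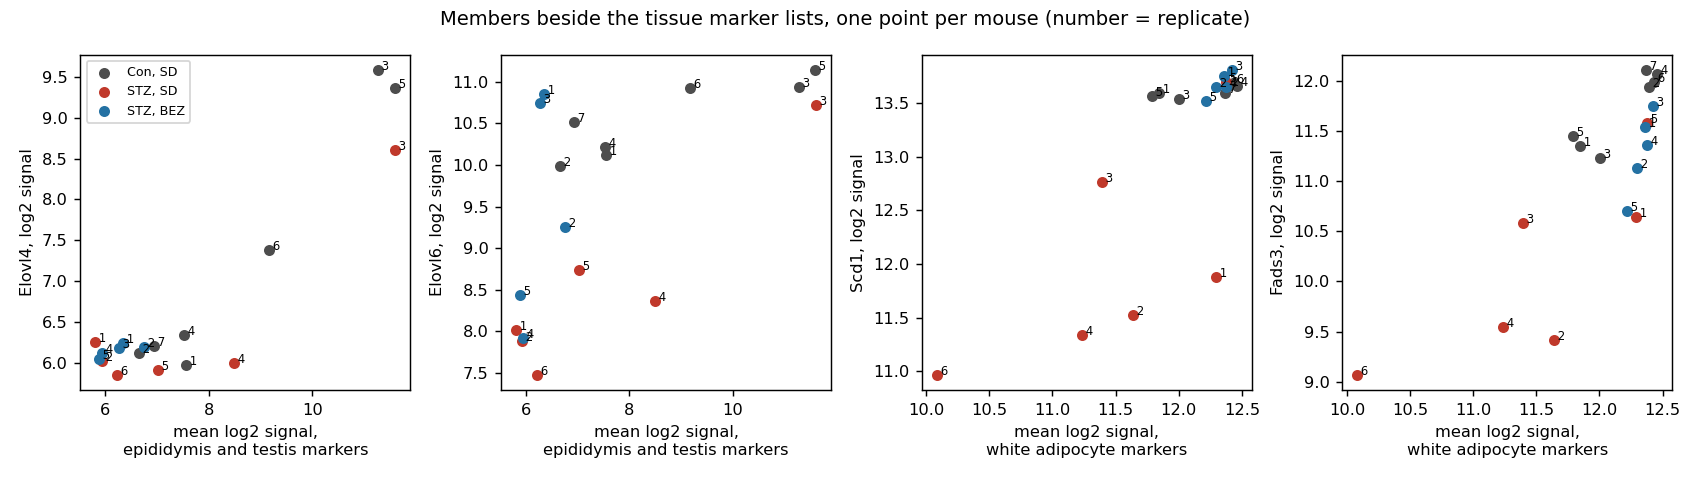
Log2 signal of Elovl4, Elovl6, Scd1 and Fads3 (vertical axes) against the mean log2 signal of a tissue marker list (horizontal axes), with 1 point per mouse, coloured by group and numbered by replicate. Elovl4 exceeds 7 in the 4 mice with an epididymis and testis mean of 9.17 or more, and STZ, SD replicate 1 has a low Scd1 signal (11.88) at a white adipocyte mean of 12.29.

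The genes also varied together from mouse to mouse within groups. After each group mean was subtracted, Scd2 and Elovl6 had a Pearson's r of 0.92 and a Spearman's rho of 0.89 over the 18 mice (permutation p of 9e-05 and 4e-05, adjusted over 45 gene pairs 0.00101 and 0.0009). Without the 2 mice farthest from the median in Scd2, r was 0.86. In later pairs the gene named first chose the 2 mice, except with Elovl7, where Fads2 or Elovl1 did. Fads1 and Fads2 had r of 0.88 and rho of 0.89 (permutation p of 2e-05 and 7e-05, adjusted 0.00045 and 0.00105), and r was 0.88 without the 2 mice farthest in Fads1. Scd1 and Fads3 had r of 0.86 and rho of 0.77 (permutation p of 4e-05 and 0.00062, adjusted 0.0006 and 0.00558), with 0.66 without the 2 farthest mice. Fads3 and Elovl1 had r of 0.79 and rho of 0.83 (permutation p of 1e-05 for both, the smallest that the permutations can give, adjusted 0.00045), with 0.87 without 2 mice. Within Con, SD alone these 4 pairs had r of 0.61, 0.98, 0.75 and 0.96, and within STZ, SD alone 0.90, 0.77, 0.94 and 0.85. Scd1 and Scd2 had r of 0.36 and rho of 0.57 (permutation p of 0.303 and 0.0431, adjusted 0.488 and 0.162). Elovl4 and Elovl6 had r of 0.56 and rho of 0.57 (permutation p of 0.00019 and 0.0006, adjusted 0.00171 and 0.00558), and r became 0.36 without the 2 farthest mice. Within Con, SD its r was 0.87 and within STZ, SD 0.92, in groups that hold the mice with high epididymis and testis genes. Elovl7 went with Fads2 (r of 0.67 and rho of 0.71, permutation p of 0.00221 and 0.00117, adjusted 0.0166 and 0.00868, r of 0.57 without 2 mice). It went against Elovl1, with r of -0.64 and rho of -0.66 (permutation p of 0.00704 and 0.00581, adjusted 0.0396 and 0.0291, r of -0.56 without 2 mice). Of the 45 pairs, 7 had an adjusted permutation p under 0.05 by both measures, all of them given here. The mice share the marker list differences described above, and their part in these correlations was not tested.

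**Figure D4:**
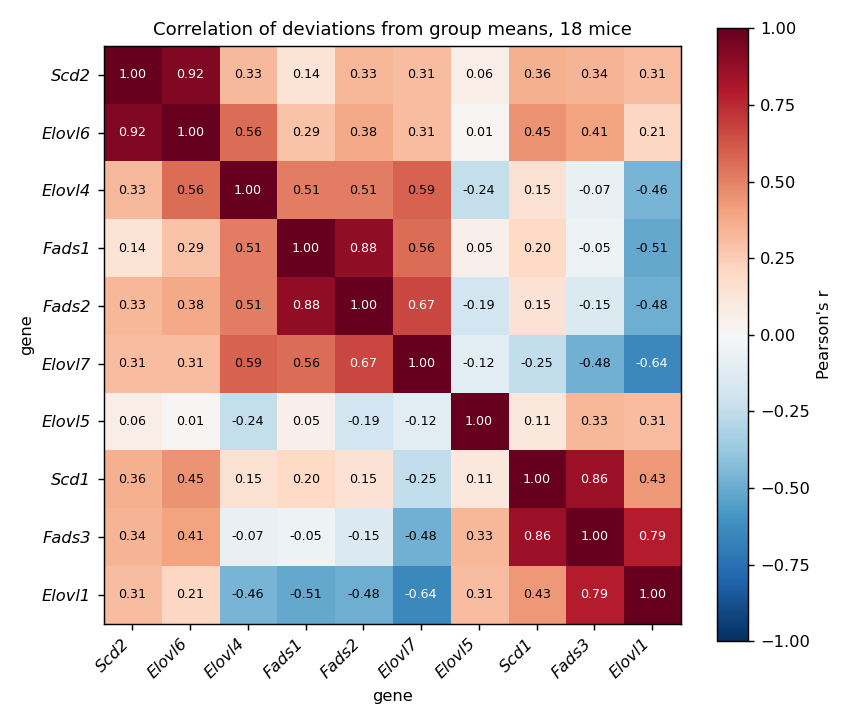
Pearson's r between the 10 genes (both axes) over 18 mice, computed on deviations from the group means, with red for positive and blue for negative values. Scd2 with Elovl6 (0.92), Fads1 with Fads2 (0.88), Scd1 with Fads3 (0.86) and Fads3 with Elovl1 (0.79) have the darkest red cells off the diagonal.

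The genes most like each lower gene were found the same way, over all genes and 18 mice, and are given as a description. For Scd1 they were Map1lc3a, with r of 0.92, Mycbp2, Adamts15, Sncg and Prkx. For Scd2 they were Elovl6, Sema3c, Acly, Itpr2 and Ajap1, and for Elovl6 they were Sema3c and Acly, both with r of 0.93, Scd2, Sqle and Zfp938. Acly encodes the citrate lyase that supplies cytosolic acetyl-CoA, and Sqle a sterol synthesis enzyme. For Fads3 they were Lep, the leptin gene, with r of 0.96, Npr3, Slc6a13, Phlda3 and Dtx2. For Elovl1 they were Nacc2, with r of 0.92, Olfm1, Tspan17, Col15a1 and Rnf11.

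The genes around the 10 enzymes were taken from lists by role. For the counts that follow, the shares over all genes were 10.3% called and 4.52% called lower in STZ, SD against Con, SD. They were 0.682% called higher in STZ, BEZ against STZ, SD and 5.95% called in STZ, BEZ against Con, SD. Of 7 other desaturases and elongases, 0 were called higher and 1 lower in STZ, SD than in Con, SD, namely Degs1, the dihydroceramide desaturase (-0.48, adjusted p of 0.0584 in limma). None of the 7 was called between STZ, BEZ and STZ, SD, and 1 was called higher in STZ, BEZ than in Con, SD. That gene was Elovl3, an elongase known from brown fat and skin, which rose by 2.07 over Con, SD (adjusted p of 0.0421 in limma). Its difference from STZ, SD was 1.56, with an adjusted p of 0.304 in limma. Of the 8 brown adipocyte genes 2 were called higher in STZ, BEZ than in STZ, SD, Cox8b (2.86, adjusted p of 0.000793 in limma) and Cidea (1.65, 0.0642), and their part in the Elovl3 value was not tested. The median differences of the 7 other desaturases and elongases were -0.08 for STZ, SD minus Con, SD and 0.01 for STZ, BEZ minus STZ, SD. Those of the 8 brown adipocyte genes were -0.28 and 0.62.

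Among 13 genes of the remaining elongation cycle and of the cytochrome b5 electron supply that desaturases use, 0 were called higher and 3 lower in STZ, SD. These were Cyb5b, a cytochrome b5 (-0.60, adjusted p of 0.0467 in limma), and the cytochrome b5 reductases Cyb5r1 (-0.34, 0.0561) and Cyb5r3 (-0.40, 0.0683). Cyb5a, the other cytochrome b5 of the list, differed by -0.01 between STZ, SD and Con, SD and by 0.04 between STZ, BEZ and STZ, SD, neither called. With bezafibrate 1 of the 13 was called higher than in STZ, SD. Hsd17b12, the ketoacyl reductase of the cycle, was 9.20 to 10.80 in STZ, SD and 10.88 to 11.23 in STZ, BEZ, and rose by 1.23 (adjusted p of 0.0642 in limma). It was also called higher in STZ, BEZ than in Con, SD, by 1.06 (adjusted p of 0.0303 in limma).

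Of 8 lipogenic genes that supply the substrate, 4 were called lower in STZ, SD and 1 higher. The lower ones were Fasn, fatty acid synthase (-1.64, adjusted p of 0.0207 in limma), Acss2, an acetyl-CoA synthetase (-1.66, 0.0322), Thrsp (-1.69, 0.0382) and Me1, malic enzyme (-1.57, 0.0452). Acacb, the acetyl-CoA carboxylase that is tied to mitochondria, was 1.12 higher (adjusted p of 0.0562 in limma). With bezafibrate 1 of the 8 was called higher than in STZ, SD, Slc25a1, the mitochondrial citrate carrier (1.14, adjusted p of 0.0765 in limma), while the median difference of the list was 1.57 and all 8 differences were above 0. In STZ, BEZ compared with Con, SD 1 of the 8, Acacb, was called higher, by 1.98 (adjusted p of 0.00864 in limma).

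Of 20 regulators of desaturase genes, 2 were called higher and 0 lower in STZ, SD, near the 10.3% of all genes called. The median difference of the list was 0.03, against -0.03 over all genes. The called regulators were Ppargc1a, a coactivator of oxidative genes (1.27, adjusted p of 0.00514 in limma), and Usf2, an E-box factor (0.24, 0.0436). With bezafibrate 1 regulator was called higher than in STZ, SD, Srebf1, which encodes SREBP-1 (0.93 ± 0.21 SE, adjusted p of 0.0765 in limma). Srebf1 had differed by -0.40 between STZ, SD and Con, SD (adjusted p of 0.270 in limma). Mlxipl, which encodes ChREBP, differed by 0.17 and 0.55 in the 2 comparisons, Nr1h3, the LXR alpha gene, by -0.22 and 0.80, and Pparg by -0.24 and 0.70, none of them called. Ppara differed by 0.42 and 0.48, not called, and was called higher in STZ, BEZ than in Con, SD (0.90, adjusted p of 0.00969 in limma), as were Ppargc1a (1.58, 0.00106) and Usf2 (0.23, 0.0896).

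Of 13 enzymes that place acyl chains into lipids, 4 were called lower and 0 higher in STZ, SD. They were Dgat2 (-1.66, adjusted p of 0.0149 in limma) and Agpat2 (-1.37, 0.0324) of triglyceride synthesis, Cers4, a ceramide synthase (-0.52, 0.0738), and Lpcat3 (-0.34, 0.0997). Lpcat3, which puts polyunsaturated chains into phospholipids, was the 1 gene of this list called higher with bezafibrate than in STZ, SD, by 0.89 ± 0.13 (SE) with an adjusted p of 0.00846 in limma. Its signal covered 10.44 to 11.05 for controls, 10.12 to 10.76 for STZ, SD and 11.10 to 11.57 for STZ, BEZ, so the STZ, BEZ mice were above both other groups. It was also called higher than in Con, SD (0.55, adjusted p of 0.0235 in limma), as was Dgat1 (1.00, 0.0858). Among 17 fibrate target genes, 6 were called higher and 0 lower in STZ, BEZ than in STZ, SD. They were Acaa1b (1.28), Cidea (1.65), Plin5 (0.52), Ucp3 (1.49), Acot2 (0.94) and Cpt2 (1.05), with adjusted p of 0.0403 to 0.0673 in limma. Pdk4, a well-known fibrate target, was 0.95 higher in STZ, SD than in Con, SD (adjusted p of 0.0653 in limma) and 2.10 higher in STZ, BEZ than in Con, SD (0.00305), and its difference between STZ, BEZ and STZ, SD was 1.15 (0.166, not called). The differences of Angptl4 were -0.25, 0.80 and 0.55, none of them called.

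**Figure D5:**
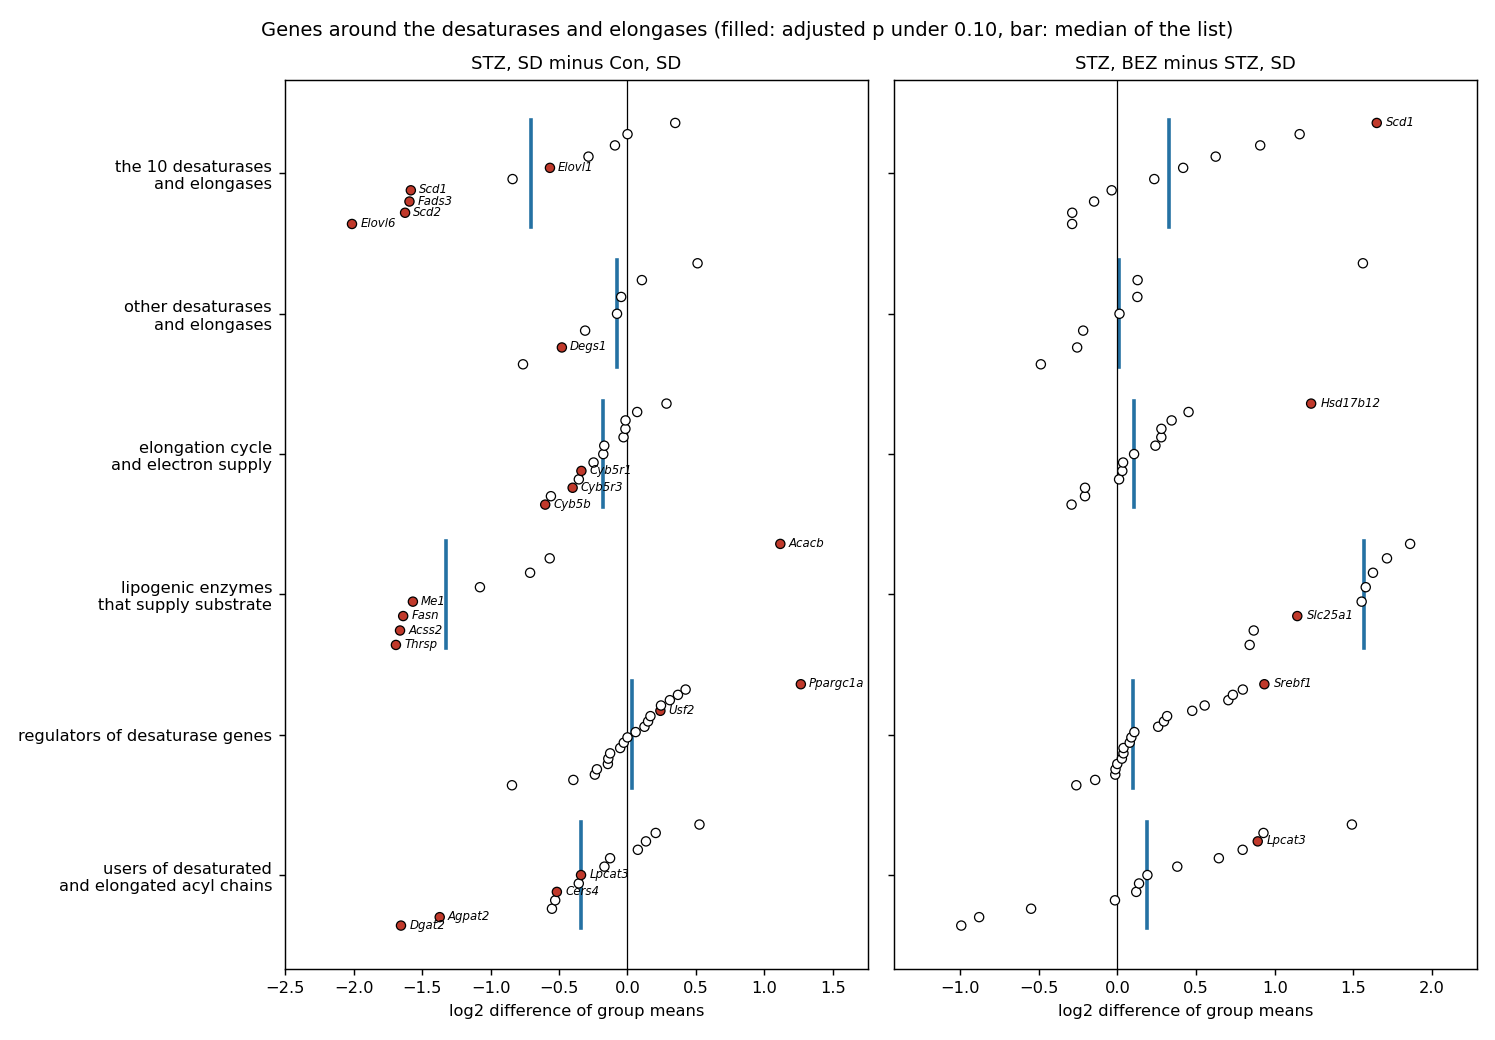
Log2 difference of group means (horizontal axis) for the 10 desaturases and elongases and for the genes of 5 lists around them (rows), for STZ, SD minus Con, SD and for STZ, BEZ minus STZ, SD, with filled points where the adjusted p over all genes was under 0.10 and a bar at the median of each list. The median of the lipogenic list lies at -1.32 in the left panel and at 1.57 in the right panel, and that of the 10 genes at -0.70 and 0.33.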

How the data were processed

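RNA of visceral fat from 18 mice was hybridised by the authors to Affymetrix Mouse Gene 1.0 ST arrays. Per the labels, robust multi-array averaging (RMA) was run by the authors with Expression Console 1.2. The values they deposited are signals on the log2 scale. RMA quantile-normalises arrays, so a shift common to all genes cannot be seen. The genome build of the probe sets is not given in the sources used here. Array medians lay between 6.76 and 6.87, and the number of arrays limits the precision.

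Of 35556 probe sets, 21789 have a single symbol in the platform table. The probe set with the highest mean was kept per gene, giving 19938 genes. Groups were compared in 1 fit of all arrays with limma 3.58.1 in R 4.3.3 (15 residual and 2.44 prior degrees of freedom), and genes were called at an adjusted p under 0.10 (Benjamini-Hochberg over all genes), after the false discovery rate of 10% that the methods used with SAM. Within-mouse differences of 3 gene pairs were compared by exact permutation (Python 3.11.15, scipy 1.17.1), and correlations by 100000 permutations within groups. The scripts were tested on simulated data.

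All 10 members are named. Of the 5 pathway lists, genes called in either of the first 2 comparisons are named (at most the 6 with the smallest adjusted p per list), with Srebf1, Mlxipl, Nr1h3, Pparg, Ppara, Pdk4 and Angptl4 in any case, and the 5 genes most correlated with each called member. Genes called between STZ, BEZ and Con, SD, the called fibrate targets, Cyb5a and the marker genes were named after their values were seen. The members and lists were chosen with earlier results of these data known. Some genes of the lists were not analysed here. Alternatives were SAM, other normalizations, filters, weights, covariates, a replicate block and mice left out. No file column was left out.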

Additional observations from a re-analysis of the deposited data

Results flagged for a closer look

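Each gene was searched in each group for a mouse far from the others, in 30 gene and group combinations, and chance flags about 1 in 20 of them. The Elovl4 signal of STZ, SD replicate 3 was 8.61, with the other 5 mice at 5.85 to 6.25, and the gap was 0.853 of the range against a critical value of 0.625. That mouse also had the highest epididymis and testis list mean of all mice, 11.60, and the part of this in the Elovl4 signal was not tested. The Fads1 signal of STZ, BEZ replicate 5 was 11.28, with the other 4 mice at 10.71 to 10.87, and the gap was 0.729 of the range against a critical value of 0.71. That mouse had the lowest pancreas list mean of its group, 5.95, and the highest liver list mean of all mice, 10.14, against 6.79 to 7.25 in its group mates, and the part of this in the Fads1 signal was not tested.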

How the results depend on the processing

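Of 540 differences recomputed with 1 mouse left out, 17 changed sign, and so did 24 of 444 under other alternatives, none of them for a difference that was called. The 5 lower members in STZ, SD against Con, SD were 5 in all leave-outs. In STZ, BEZ against STZ, SD 0 to 2 members were called higher in leave-outs, and in STZ, BEZ against Con, SD 0 to 1 lower (without Con, SD replicate 3). Leave-outs called 5.66% to 14.5%, 0.0552% to 3.54% and 2.1% to 10.5% of all genes in the 3 comparisons. Counts over all genes ranged from 442 to 3427, from 2 to 2149 and from 279 to 4731 in the 3 comparisons, and 4264 of all 35556 probe sets were called in the first.

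Replicate numbers do not pair the mice: same-numbered deviations correlated between -0.357 and 0.70, above 0.1 in 2 of 16 pairs. With the replicate block 1 member was lower in STZ, SD and 0 higher with bezafibrate, against 3 and 0 in the same 15 mice without the block (chosen after seeing the data). The shares of all genes called in these comparisons were 2.22% and 0.01% with the block, and 5.7% and 0.466% without it. In both fits Fads1 was -0.035 and Elovl5 0.095 for STZ, SD minus Con, SD.

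For STZ, BEZ against STZ, SD, 0 members were higher at an adjusted p under 0.05 or with only the 2 groups. The same held without the mice high in epididymis genes (chosen after seeing the data). Of all genes, 0.0853% were called at an adjusted p under 0.05. The share was 0.0702% with only the 2 groups, and 0.0702% without the mice high in epididymis genes. With the pancreas list mean and the epididymis and testis list mean as covariates, 3 members were higher. That fit called 10.8% of all genes, against 0.707% in the main fit. No adipocyte, muscle or liver list mean was among the covariates. With the covariates 1 member was higher in STZ, SD (17.2% of all genes called). In STZ, BEZ against Con, SD 1 was higher and 1 lower with them (18.7% of all genes called). There, SAM called 1 higher and 3 lower, and array weights, only the 2 groups and leaving out the epididymis-high mice called 1 lower each.

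Signs turned as follows, in differences that were not called. Equal medians gave Fads1 -0.024 for STZ, SD minus Con, SD, and array weights gave it 0.044 for STZ, BEZ minus Con, SD. With covariates, STZ, BEZ minus STZ, SD was 0.37 for Fads1, 0.21 for Fads2 and 0.44 for Elovl4, STZ, BEZ minus Con, SD was 0.67, 0.33 and 0.26, and Fads2 was 0.13 for STZ, SD minus Con, SD. Without epididymis-high mice Fads1 was 0.11 and 0.16 and Elovl4 0.15 against STZ, SD. Without pancreas-high mice, STZ, BEZ minus STZ, SD was -0.073 for Scd2, 0.15 for Fads1, -0.060 for Elovl1, -0.31 for Elovl6 and 0.20 for Elovl7, STZ, BEZ minus Con, SD was -0.091 for Scd1 and 0.36 for Fads1, and Elovl5 was 0.026 for STZ, SD minus Con, SD. Leave-outs spanned -0.41 to 0.15 for Elovl4 against STZ, SD, -0.17 to 0.026 for Elovl5 in STZ, SD, and for Fads1 -0.18 to 0.21, -0.25 to 0.11 and -0.21 to 0.082 in the 3 comparisons.

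The Scd1 minus Scd2 change between STZ, BEZ and Con, SD, 1.07, had an adjusted p of 0.0647 by limma on the differences, and in STZ, SD it spanned -0.27 to 0.28 in leave-outs. The Elovl6 minus Elovl5 change spanned -2.41 to -1.74 in STZ, SD and -1.78 to -1.10 in STZ, BEZ against Con, SD. In the latter its adjusted p was under 0.05 without STZ, BEZ replicate 1 or 3. The filter on dim genes leaves out Elovl4 and Elovl7. Without the pancreas-high mice a lone STZ, BEZ mouse is assumed to vary like the other groups. The causes were not tested.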
